A study of Mus musculus with 10 samples.

Results

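The 40 genes described here encode the working parts of the lysosome: 10 proteases, 10 glycosidases and sulfatases, 4 proteins that handle sphingolipids or are granulin or saposin precursors, 4 membrane proteins, 2 transcription factors and 10 subunits of the proton pump. They were taken by gene symbol from a table of 35725 gene rows, where each symbol matched a single row, and all 40 passed the filter on low counts. Lung eosinophils of male mice were sorted by flow cytometry, and 5 libraries are P2ry14-null and 5 are C57BL/6J wild type (WT). P2ry14 encodes a receptor for UDP-sugars, and the labels give the mutant strain only as P2ry14-null. Every animal of both genotypes received 50 µg of ovalbumin with 20 µg of Aspergillus oryzae protease through the oropharynx on a pair of occasions and an aerosol of 1% ovalbumin 7 days later, and cells were taken 16 h after the aerosol. The sources used here give neither the ages of the mice nor whether each library came from a separate mouse, so p-values measure only the spread between these libraries, which may be technical.

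A lysosome is kept acidic by the V-ATPase, a rotary pump whose V1 sector burns ATP in the cytosol and whose V0 sector carries protons through the membrane. Acid activates the cathepsins and the enzymes that take apart glycans, sulfated sugars and sphingolipids, while heavily glycosylated membrane proteins shield the lysosome's own wall. TFEB and TFE3 are related transcription factors that raise many of these genes together when nutrients are short, by binding a short DNA element of the E-box type. In eosinophils the same machinery is tied to secretion, since the specific granules are lysosome-related organelles.

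The E-box element was visible in the sequences around the annotated start of 14 of these genes. Promoter windows of 300 bases, from 250 before to 50 after the annotated start (RefSeq, GRCm38.p6), were matched for 33 of the 40 genes, which have 42 such windows. The core CACGTG, which reads the same on both strands, was present in 14 of the 42 windows (33.3%), against 7.15% of all 32851 windows. The longer palindrome TCACGTGA, which contains that core, was present in 7 of 42 (16.7%), against 0.974% of all windows. That longer form preceded by G and followed by C was in 0 of 42 windows and in 0.326% of all windows. A match is a description of the letters and does not show that a factor binds. The windows that follow show this shared element in proteases, a glycosidase, membrane proteins and pump subunits, 5′ to 3′ on the gene's strand, with each match in capitals, TCACGTGA where the longer form is present and CACGTG otherwise.

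Lamp1: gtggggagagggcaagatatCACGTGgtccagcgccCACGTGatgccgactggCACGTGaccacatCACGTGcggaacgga

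Mcoln1: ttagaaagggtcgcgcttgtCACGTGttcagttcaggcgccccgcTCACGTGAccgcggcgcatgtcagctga

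Gla: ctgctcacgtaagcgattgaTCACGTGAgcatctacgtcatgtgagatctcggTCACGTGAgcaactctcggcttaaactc

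Ctsd: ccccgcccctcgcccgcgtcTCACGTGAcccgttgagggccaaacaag

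Ctsa: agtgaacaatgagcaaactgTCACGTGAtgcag

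Atp6v1a: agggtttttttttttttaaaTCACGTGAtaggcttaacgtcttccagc

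Atp6v0b: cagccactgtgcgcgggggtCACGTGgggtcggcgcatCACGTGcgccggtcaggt

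Atp6v0d1: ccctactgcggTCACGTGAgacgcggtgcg

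Atp6v0e: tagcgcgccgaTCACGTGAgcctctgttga

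Lamp1 held the most copies of the core, 4, all within the 81 bases before its start (chr8:13159080-13159160, plus strand). The Gla window (chrX:134601173-134601253, minus strand) held the longer form at 2 places, and that of Mcoln1 (chr8:3500428-3500500, plus strand) held 1 core and 1 longer form. Single longer forms stood in the windows shown for Ctsd (chr7:142387899-142387946, minus strand), Ctsa (chr2:164833740-164833772, plus strand) and Atp6v1a (chr16:44139364-44139411, minus strand). Those of Atp6v0d1 (chr8:105566050-105566079, minus strand) and Atp6v0e (chr17:26676387-26676416, plus strand) lay across or just past the annotated start. Outside the stretches shown, Ctsa held another longer form just past its annotated start, and Ctsd held a core further upstream. Atp6v0b (chr4:117887330-117887385, minus strand) held 2 cores, and the other members with a core were Arsa, Ctsl, Gaa, Glb1 and Lgmn. The windows of Tfeb and Tfe3 themselves held no CACGTG.

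Counts of the target gene followed the labelled genotype, and eosinophil markers were abundant in every library. P2ry14 ran from 21.8 to 24.2 CPM (counts-per-million scaled by TMM factors) in P2ry14-null libraries and from 190 to 229 CPM in WT libraries. Library totals ran from 67161968 to 150851958 reads in P2ry14-null and from 117799335 to 185124080 reads in WT. The 9 eosinophil markers, Siglecf, Ccr3 and Prg2 among them, summed to between 9138 and 9785 CPM in P2ry14-null and between 9190.3 and 9658 CPM in WT. One library stood apart in markers of other cells: P2ry14-null library 2 held the highest value of all 10 libraries in 8 of 8 class II antigen presentation markers, 8 of 11 alveolar macrophage markers, 6 of 8 other macrophage and monocyte markers and 6 of 7 lung epithelial markers. Fold changes of the members that were highest in this library are given with and without it. Since RNA was measured in bulk, fewer cells of a type and less RNA per cell cannot be told apart.

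The sorted eosinophil libraries held transcripts of all 40 genes, at levels that spanned a wide range. Levels were set per gene length as CPM per kilobase of exon (RPKM), over all annotated exon bases of each gene. Of 14188 tested genes with a known length, all 40 lysosomal genes lay in the upper part of the WT ranking, the lowest at rank 7072 (Tfe3), and 12 were among the top 1000. Ctsd, an aspartic protease, had the highest level at 559 ± 43.2 RPKM in P2ry14-null and 597 ± 53.5 RPKM in WT (SD, n = 5 each), at rank 48 in WT. It was followed by Psap, the precursor of the saposins that help lipid-degrading enzymes, at 307 ± 43.7 and 302 ± 11.5 RPKM, and by Ctsh, a cysteine protease with aminopeptidase activity, at 246 ± 15.1 and 260 ± 13.2 RPKM in P2ry14-null and WT. In WT these 3 did not overlap each other in any library. The order of Psap and Ctsh depended on the length used. By the longest transcript alone, Ctsh came before Psap, at 404 and 317 RPKM in P2ry14-null and at 426 and 312 RPKM in WT. Lower in the order neighbours ran together: in 24 of the 39 neighbouring pairs the WT ranges overlapped. Levels are uncertain for 8 genes that share over 10% of their exon bases with other annotated genes on either strand, since the sources used here do not say how such reads were assigned: Arsb (39.9%), Ctsd (34.4%), Ctsl (32.9%), Arsa (18.75%), Ctsa (17.4%), Ctsb (12.8%), Hexa (12.8%) and Atp6v0b (11.8%).

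**Figure D1:**
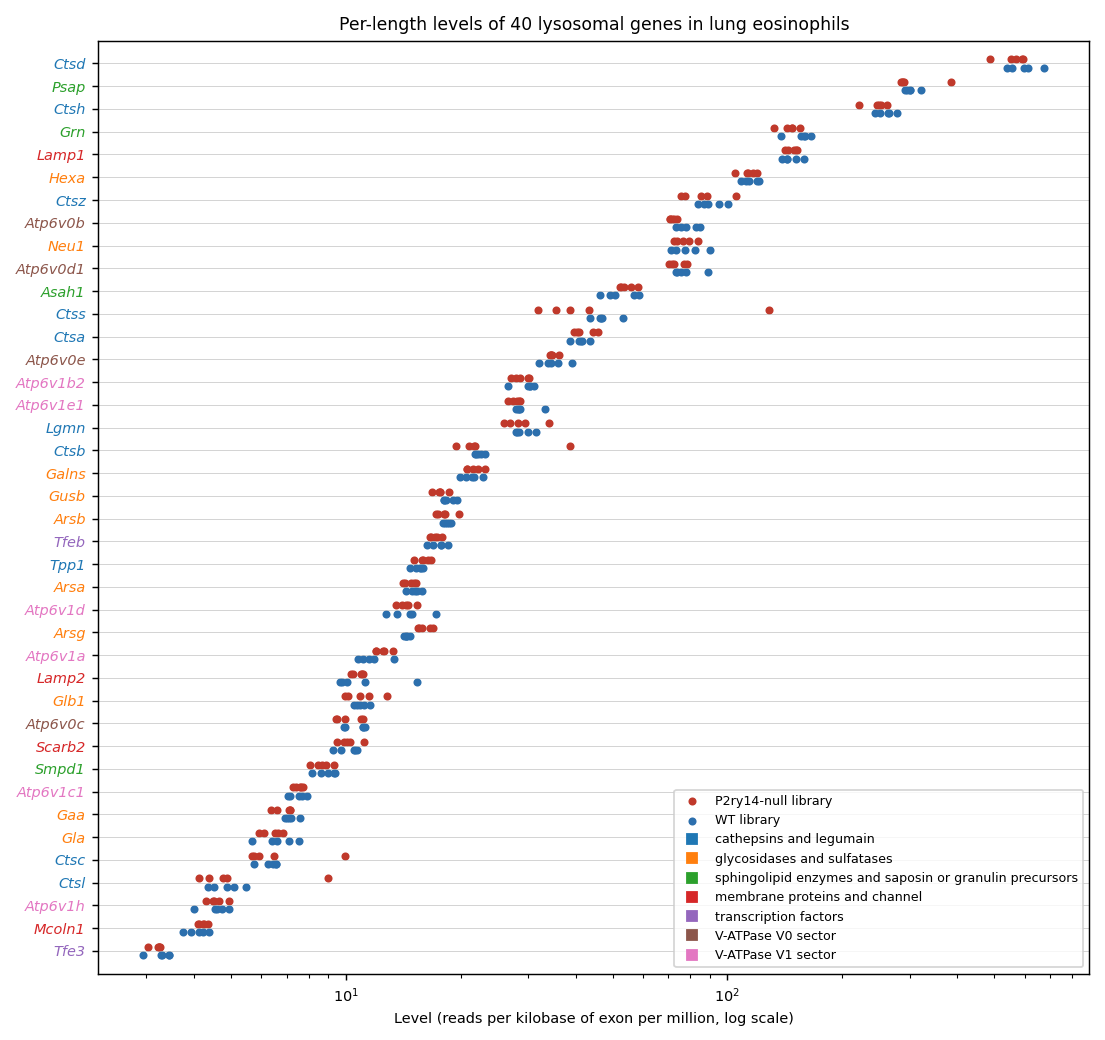
Level of each of the 40 genes in every library, in CPM per kilobase of exon (RPKM) on a log axis, ordered by the WT mean; red points are P2ry14-null and blue points WT libraries, and the colour of a gene name gives its role. Ctsd is highest at 597 RPKM in WT and Tfe3 lowest at 3.29 RPKM, and a single high red point stands apart in each of Ctss, Ctsb, Ctsl and Ctsc.

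No lysosomal gene differed between genotypes past the threshold. With edgeR's quasi-likelihood test and an adjusted p under 0.05 over all genes, 0 of the 40 were called, against a background of 6 of 15586 genes (0.0385%; by direction, 0.0128% with higher and 0.0257% with lower P2ry14-null counts). DESeq2 also called 0 of the 40, against 19 of 25217 genes (0.0753%). At an unadjusted edgeR p under 0.05 there were 2 of 40, Arsg and Atp6v0b (5.0%, against 4.13% of all genes tested), and at an unadjusted DESeq2 p under 0.05 also 2 of 40 (against 2.88%). Log2 fold changes, P2ry14-null minus WT, ran from -0.13 for Atp6v0b to 0.23 for Ctss, and 34 of 40 were smaller than 0.1 in size. Their median was -0.021, beside 0.0025 over all genes tested. Below 0 lay 23 of 40 (57.5%, against 48.8% of all genes). With total counts as the sole scaling 16 of 40 lay below 0, against 35.0% of all genes, so the whole table shifted with the members.

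The data were precise enough to bound these differences. Each member rested on at least 1466 reads per library and the median standard error (SE) of a member's log2 fold change was 0.056, against 0.089 over all genes tested. For 36 of the 40 genes the 95% interval of the fold change lay within 1.25-fold in either direction, and for 39 within 1.5-fold. The 4 genes with wider intervals were the cathepsins Ctsb, Ctsc, Ctsl and Ctss. The whole set took 0.707 to 0.829% of all counts in P2ry14-null and 0.702 to 0.804% in WT libraries.

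**Figure D2:**
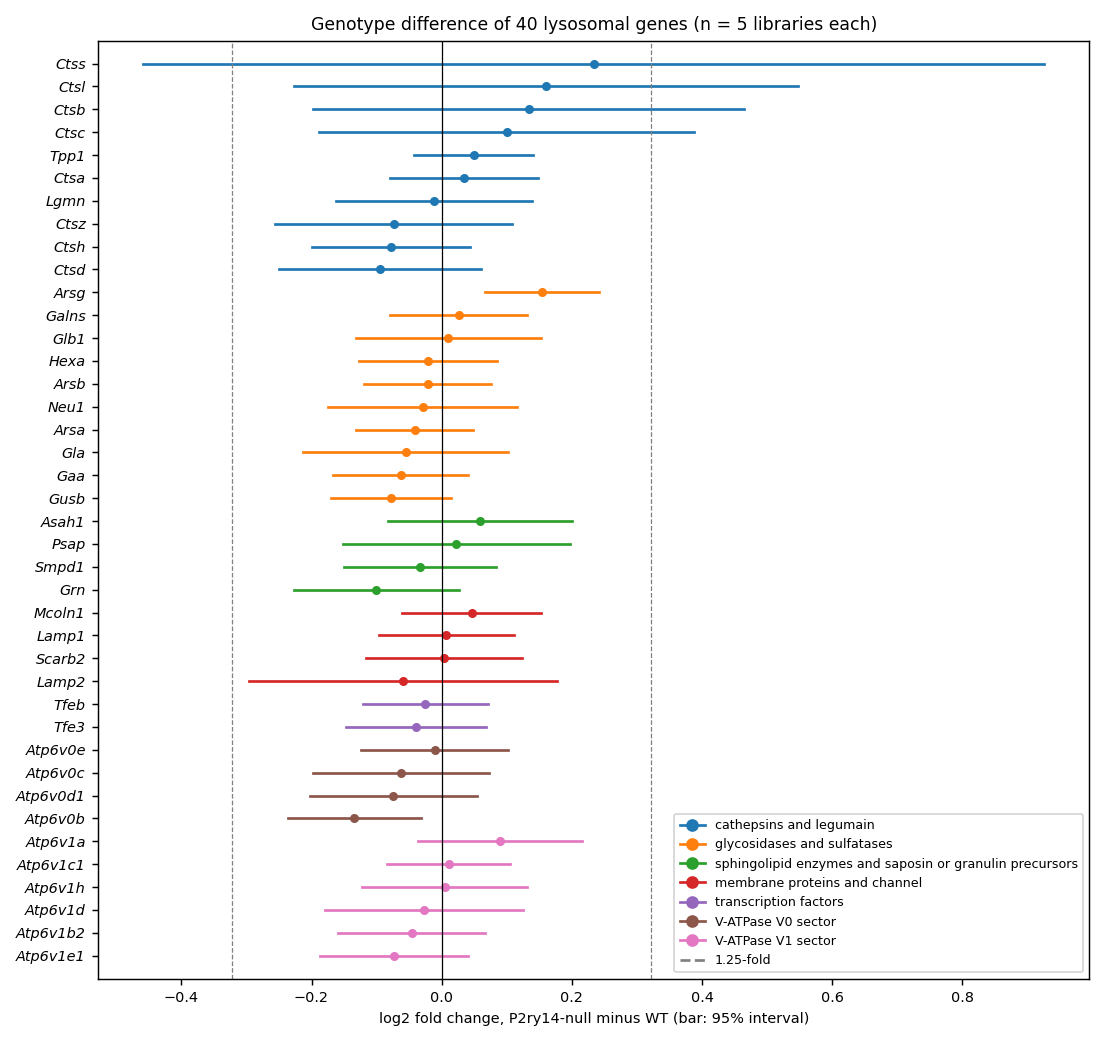
Log2 fold change of each gene, P2ry14-null minus WT (point), with its 95% interval from the edgeR fit (bar), grouped by role and coloured as in the legend; dashed lines mark 1.25-fold. The intervals of 36 genes stay between the dashed lines, and the widest are those of Ctss, Ctsl, Ctsb and Ctsc.

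Ctsd, Ctsh, Ctsa, Tpp1 and Lgmn, of the proteases, gave no called difference. Ctsd stood at 1394, 1390.1, 1341, 1299.6 and 1146 CPM in P2ry14-null libraries 1 to 5 and at 1590.0, 1305, 1409.8, 1271 and 1441 CPM in WT libraries 1 to 5. The groups overlapped, with the lowest value in P2ry14-null library 5 and the highest in WT library 1, and the fold change was 0.936 (95% interval 0.841 to 1.04; edgeR adjusted p = 0.999; exact permutation p = 0.286, two-sided). In the annotation, 34.4% of the Ctsd exon bases (gene ID 13033; mm10 chromosome 7, 142375916 to 142387870, minus strand) are shared with a gene on the same strand, Gm49369, so part of its reads may be split between both. Ctsh averaged 1108 ± 68.2 CPM in P2ry14-null and 1169 ± 59.5 CPM in WT (SD, n = 5 each). Ctsa, the carboxypeptidase that protects beta-galactosidase and sialidase, averaged 199 ± 13.0 and 195 ± 8.15 CPM, and Tpp1, a tripeptidyl peptidase, 82.6 ± 3.24 and 79.9 ± 2.37 CPM in P2ry14-null and WT. Lgmn, the asparaginyl endopeptidase that matures several cathepsins, averaged 67.3 ± 7.41 CPM in P2ry14-null and 67.8 ± 3.62 CPM in WT.

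The cysteine proteases Ctss, Ctsb, Ctsl and Ctsc were different in 1 respect: their P2ry14-null mean rested on library 2. Ctss, an endopeptidase known for trimming the class II invariant chain, held 48.4, 174, 43.3, 59.0 and 52.7 CPM in P2ry14-null libraries 1 to 5, against 72.2, 63.4, 62.8, 59.3 and 63.8 CPM in WT libraries 1 to 5. The other 4 P2ry14-null libraries all lay below the lowest WT library, and library 2 lay above them all. Over all libraries its log2 fold change came to 0.23 ± 0.32 SE, with an edgeR adjusted p of 0.999. Without library 2 it came to -0.34 ± 0.08 SE, with an edgeR adjusted p of 0.806. The direction thus turned, and neither value passed the threshold.

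Ctsb, a cysteine endopeptidase, held 132, 234, 118, 127 and 131 CPM in P2ry14-null libraries 1 to 5, against 139.9, 132, 137, 133 and 135 CPM in WT libraries. Ctsl, another endopeptidase of the papain family, held 31.8, 58.4, 26.8, 30.9 and 28.5 CPM in P2ry14-null, against 33.1, 31.7, 29.3, 35.6 and 28.3 CPM in WT. Ctsc, the dipeptidyl peptidase that activates granule serine proteases, held 33.0, 57.9, 33.4, 34.5 and 37.7 CPM in P2ry14-null, against 38.2, 33.5, 37.5, 38.1 and 36.4 CPM in WT. In all 3 genes the value of P2ry14-null library 2 was the highest of the 10 libraries. Their log2 fold changes were 0.13 ± 0.15, 0.16 ± 0.18 and 0.10 ± 0.13 (SE) with all libraries. Without library 2 they were -0.09 ± 0.05 for Ctsb, -0.10 ± 0.07 for Ctsl and -0.08 ± 0.06 for Ctsc, so that all 3 changed direction. Ctsl is further uncertain because 32.9% of its exon bases are shared with other annotated genes and the counting is not stated to use strand.

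Psap, Ctsz, Lgmn and Tpp1 were also highest of all 10 libraries in P2ry14-null library 2, by smaller margins. For Psap that library held 1057 CPM, against 781 to 795 CPM in the other 4 P2ry14-null libraries and 802 to 883 CPM in WT. Its log2 fold change was 0.02 ± 0.08 (SE) with all libraries and -0.07 ± 0.05 without that library. Ctsz, a carboxypeptidase, held 151 CPM there, against 109 to 128 CPM in the other P2ry14-null libraries and 121 to 144 CPM in WT, and its log2 fold change was -0.07 ± 0.08 with and -0.15 ± 0.07 without that library. Lgmn had a log2 fold change of -0.01 ± 0.07 (SE) with and -0.08 ± 0.06 without that library, and Tpp1 one of 0.05 ± 0.04 with and 0.03 ± 0.05 without it. In all, P2ry14-null library 2 was the highest of 10 libraries in 8 of the 40 genes, 7 of them proteases, and the lowest in 0. The matching shares over all genes tested are not given here, so these counts are not particular to lysosomal genes.

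Markers of other cell types moved with this library, and their part in these cathepsin values was not tested. The 8 class II markers summed to 430.3 CPM in P2ry14-null library 2, against 75.6 to 122 CPM in the other P2ry14-null libraries and 107 to 145 CPM in WT, and 0 of the 8 were absent from all libraries of a group. The 11 alveolar macrophage markers summed to 2209 CPM there, against 736 to 864 CPM in the other P2ry14-null libraries and 786 to 1016 CPM in WT. Most of that sum came from Chil3 and Car4, at 1520.5 and 589.7 CPM in P2ry14-null library 2. The defining marker Marco was at 0.142 CPM or lower in every library and stood at 0 in P2ry14-null library 3. The complement gene C1qb of tissue macrophages was at 17.4 CPM in P2ry14-null library 2, against 2.08 to 3.78 CPM in the other P2ry14-null libraries and 2.53 to 3.90 CPM in WT. The 7 lung epithelial markers summed to 78.3 CPM there, against 10.2 to 23.6 CPM in the other P2ry14-null and 17.2 to 31.0 CPM in WT libraries. The 7 lymphocyte markers summed to 22.0 CPM there, against 10.6 to 14.2 CPM in the other P2ry14-null libraries and 11.5 to 17.4 CPM in WT, with 6 of 7 highest there. The 9 neutrophil markers summed to 3697 CPM there, against 4039.9 to 5397 CPM in the other P2ry14-null libraries and 3701 to 4641 CPM in WT. That sum is nearly all Retnlg, at 3408 CPM in P2ry14-null library 2, while 3 of the 9 markers, S100a8, Mmp8 and Cxcr2, were highest there. Sums of the 7 mast cell and basophil markers (1.69 CPM), the 7 endothelial and fibroblast markers (223 CPM) and the 10 heat shock and immediate early genes (4841 CPM) in that library lay within the range of the other P2ry14-null libraries. The endothelial and fibroblast sum is nearly all Pecam1, at 217 CPM in P2ry14-null library 2. Of its 7 markers, 2 were highest of all 10 libraries there, Kdr at 0.428 CPM and Cdh5 at 0.778 CPM.

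**Figure D3:**
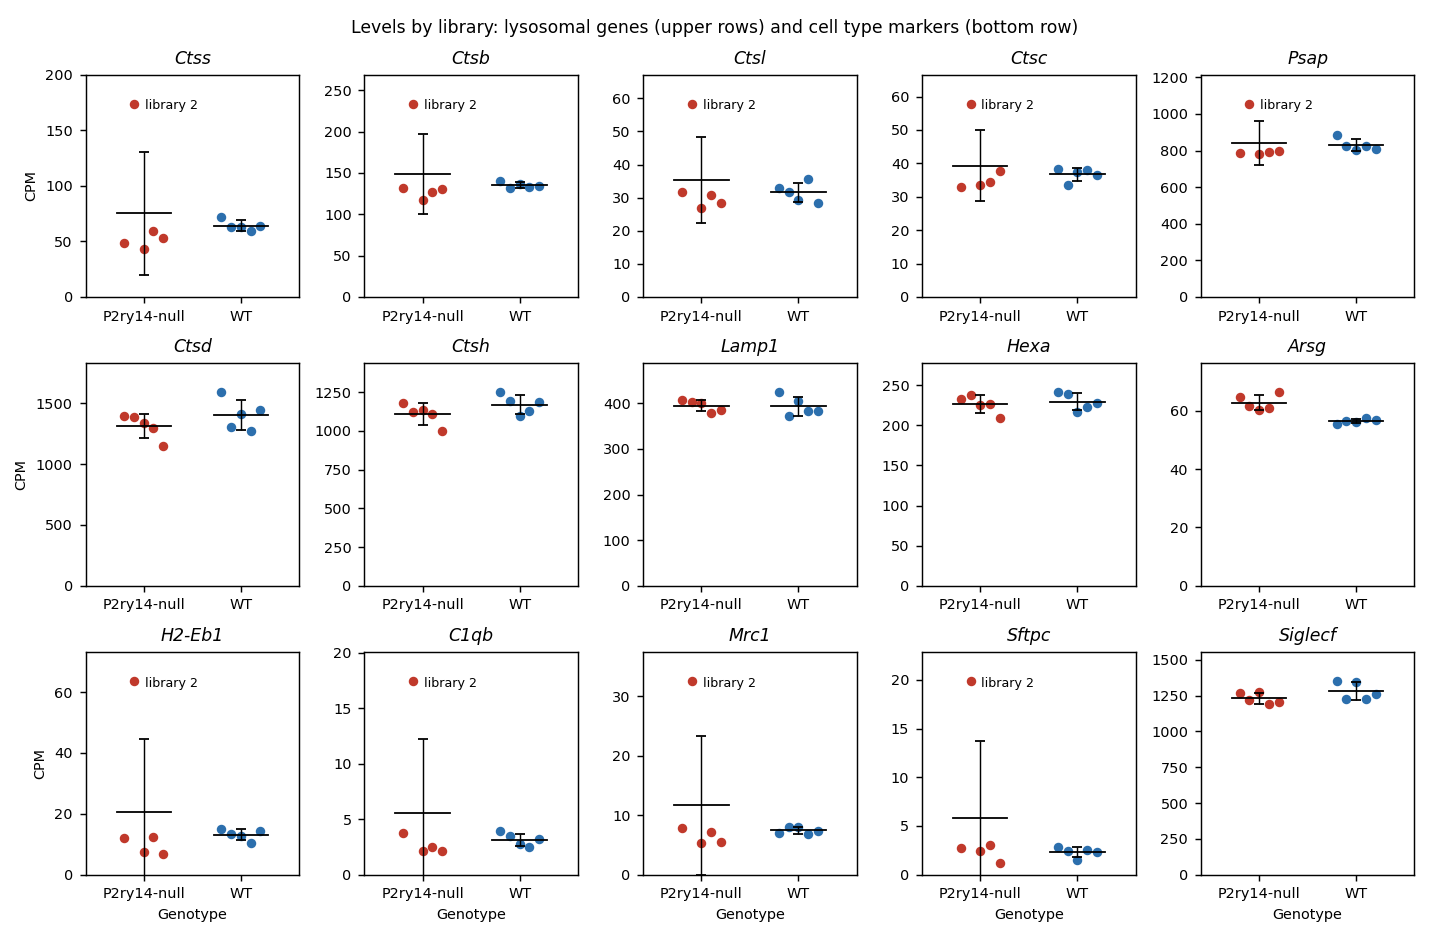
Level in CPM of 10 lysosomal genes (upper rows) and 5 cell type markers (bottom row) in each library, P2ry14-null in red and WT in blue; horizontal lines are means and bars SD (n = 5 each, bars are cut at 0). P2ry14-null library 2, labelled where it is the highest of all, is at 174 CPM for Ctss, 63.6 CPM for H2-Eb1 and 17.4 CPM for C1qb, while Siglecf lies between 1189 and 1352 CPM in all libraries.

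The glycosidases and sulfatases lay within narrow limits, and the 10 intervals of their fold changes all stayed between 0.863 and 1.18. Arsg, a sulfatase that acts on heparan sulfate, had the smallest p of all members. It held 64.8, 61.8, 60.3, 61.0 and 66.3 CPM in P2ry14-null libraries 1 to 5, against 55.5, 56.4, 56.1, 57.6 and 56.7 CPM in WT libraries. Every P2ry14-null library lay above every WT library. The groups did not overlap, in either direction, in 101 of 15586 genes tested (0.648%), and Arsg was the sole such member, 1 of 40 (2.5%). The fold change was 1.11 (95% interval 1.05 to 1.18; log2 0.15 ± 0.04 SE) and did not pass over all genes (edgeR adjusted p = 0.999; DESeq2 adjusted p = 0.189). Its exact permutation p of 0.0079 is the smallest that 5 against 5 libraries allow and is not corrected for the number of genes. Arsg (gene ID 74008; mm10 chromosome 11, 109473334 to 109573330, plus strand) shares 1.23% of its exon bases with Slc16a6 on the other strand.

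The related sulfatases did not follow Arsg. Arsa, which acts on sulfatide, averaged 54.2 ± 1.74 CPM in P2ry14-null and 55.8 ± 1.98 CPM in WT, and Arsb, which acts on dermatan sulfate, 109.8 ± 6.09 and 111 ± 2.24 CPM (SD, n = 5 each). Galns, the sulfatase of keratan sulfate, averaged 57.5 ± 2.66 CPM in P2ry14-null and 56.5 ± 2.97 CPM in WT. Their log2 fold changes were -0.04 ± 0.04, -0.02 ± 0.05 and 0.03 ± 0.05 (SE), and the difference between these and Arsg was not tested. For Arsb, 39.9% of exon bases overlap genes on the other strand, so its level is uncertain without a strand setting.

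Hexa, the alpha chain of beta-hexosaminidase, had the highest level of this class at 113 ± 5.65 RPKM in P2ry14-null and 115 ± 5.14 RPKM in WT. Its counts were 233, 239, 225, 227 and 209 CPM in P2ry14-null libraries and 241, 239, 217, 224 and 227 CPM in WT libraries, with a fold change of 0.986 (95% interval 0.916 to 1.06). Both groups covered nearly the same range. Gusb, beta-glucuronidase, ranked next below Atp6v0b by p among members with a lower P2ry14-null mean. It held 80.4, 84.7, 79.7, 80.5 and 76.6 CPM in P2ry14-null, against 89.2, 87.0, 82.3, 82.3 and 83.4 CPM in WT, with a fold change of 0.947 (95% interval 0.889 to 1.01; edgeR adjusted p = 0.999; exact permutation p = 0.0476). Its groups overlapped through P2ry14-null library 2. Neu1, the lysosomal sialidase, averaged 288 ± 17.3 CPM in P2ry14-null and 294 ± 27.9 CPM in WT. Glb1, Gla and Gaa, which release galactose or glucose, had fold changes between 0.957 and 1.01.

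The 4 sphingolipid and precursor genes and the 4 membrane proteins gave no called difference. Grn, progranulin, averaged 504 ± 28.9 CPM in P2ry14-null and 540 ± 36.5 CPM in WT (fold change 0.933, 95% interval 0.854 to 1.02). Asah1, acid ceramidase, averaged 185 ± 8.44 and 178 ± 17.6 CPM, and Smpd1, acid sphingomyelinase, 29.0 ± 1.59 and 29.7 ± 1.70 CPM in P2ry14-null and WT. Lamp1, the main glycoprotein of the lysosomal wall, held 407, 404, 399.7, 379.7 and 385 CPM in P2ry14-null libraries, against 424, 371, 404, 383 and 382 CPM in WT libraries. Its fold change was 1.00 with a 95% interval of 0.935 to 1.08, and both groups lay in the same range. Scarb2, which carries glucocerebrosidase to the lysosome, averaged 64.0 ± 3.90 and 63.9 ± 3.95 CPM, and Mcoln1, the lysosomal cation channel, 31.9 ± 0.828 and 30.9 ± 1.94 CPM in P2ry14-null and WT.

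Lamp2, whose isoforms serve the lysosomal wall and chaperone-mediated autophagy, was the member most uneven among WT libraries, with a coefficient of variation of 21.5%, against a median of 6.03% over all 40. It ran from 98.9 to 106 CPM in P2ry14-null libraries, and stood at 108, 92.4, 147, 96.1 and 93.3 CPM in WT libraries 1 to 5. WT library 3 was highest by far. The log2 fold change was -0.06 ± 0.11 (SE) with all libraries and 0.08 without WT library 3.

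Of the transcription factors, Tfeb was the more abundant, at 17.1 ± 0.513 RPKM in P2ry14-null and 17.5 ± 0.827 RPKM in WT, and Tfe3 stood at 3.20 ± 0.089 and 3.29 ± 0.203 RPKM. Tfeb held 97.0, 95.0, 102, 94.2 and 98.3 CPM in P2ry14-null libraries and 105, 101, 92.7, 100.5 and 96.1 CPM in WT libraries. These values interleave, and the fold change was 0.983 (95% interval 0.919 to 1.05). The 14 genes with a CACGTG core in a promoter window had a median log2 fold change of -0.011 (range -0.13 to 0.16), and the 19 genes with a window but no core -0.028 (range -0.10 to 0.23). Median levels were 21.8 RPKM in P2ry14-null and 22.2 RPKM in WT for the 14, and 17.1 and 17.5 RPKM for the 19. Transcript counts do not show where these factors were in the cell, which is how their activity is mainly set.

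The proton pump genes differed among themselves far more than between genotypes. In the V0 sector, Atp6v0b, a proteolipid of the proton-carrying ring, had 71.8 ± 1.22 RPKM in P2ry14-null and 78.8 ± 4.84 RPKM in WT, and Atp6v0d1, which couples the ring to the central stalk, 74.0 ± 3.65 and 77.9 ± 6.51 RPKM. By the longest transcript alone, Atp6v0b stood at 147 and 162 RPKM and Atp6v0d1 at 81.4 and 85.7 RPKM in P2ry14-null and WT. The small membrane subunit Atp6v0e had 34.8 ± 0.789 and 35.1 ± 2.63 RPKM over all exon bases. Atp6v0c, the other ring proteolipid, stood lower, at 10.2 ± 0.813 and 10.7 ± 0.673 RPKM in P2ry14-null and WT. The table also holds a pseudogene, Atp6v0c-ps2, and the sources used here do not say how reads with several matches were counted, so the level of Atp6v0c is uncertain.

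In the V1 sector, the nucleotide-binding subunit Atp6v1b2 had 28.8 ± 1.35 RPKM in P2ry14-null and 29.7 ± 1.76 RPKM in WT and the stator subunit Atp6v1e1 27.9 ± 0.791 and 29.3 ± 2.23 RPKM. Lower stood the stalk subunit Atp6v1d at 14.4 ± 0.644 and 14.6 ± 1.68 RPKM and the catalytic subunit Atp6v1a at 12.5 ± 0.540 and 11.7 ± 1.00 RPKM. The stator subunit Atp6v1c1 had 7.53 ± 0.177 and 7.47 ± 0.353 RPKM, and the regulatory subunit Atp6v1h 4.58 ± 0.237 and 4.57 ± 0.352 RPKM in P2ry14-null and WT. Over the longest transcript alone, Atp6v1h came before Atp6v1c1, at 9.25 and 8.56 RPKM in P2ry14-null and at 9.22 and 8.49 RPKM in WT.

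Atp6v0b (gene ID 114143; mm10 chromosome 4, 117884330 to 117887329, minus strand) had the smallest p of the pump genes. It held 145, 149, 151, 146 and 145 CPM in P2ry14-null libraries 1 to 5, against 174, 169, 150.4, 155 and 159.6 CPM in WT libraries. The P2ry14-null values were tightly grouped, and the groups overlapped only through WT library 3. The fold change was 0.911 (95% interval 0.849 to 0.978; edgeR unadjusted p = 0.0142 and adjusted p = 0.999; DESeq2 adjusted p = 0.852; exact permutation p = 0.0159, not corrected). In the annotation 11.8% of its exon bases overlap Gm12841 on the other strand. The other V0 subunits had fold changes between 0.950 and 0.992.

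Atp6v1a had the second smallest p, after Arsg, among genes with a higher P2ry14-null mean, at 80.4, 75.7, 72.4, 72.6 and 76.1 CPM in P2ry14-null libraries, against 71.6, 65.2, 80.8, 69.7 and 67.1 CPM in WT libraries. The highest of all was WT library 3, so the groups overlapped, and the fold change was 1.06 (95% interval 0.975 to 1.16; edgeR adjusted p = 0.999; exact permutation p = 0.167). Atp6v1b2 held 148, 161, 152, 159 and 144 CPM in P2ry14-null libraries and 162, 159, 161, 141 and 165 CPM in WT libraries (fold change 0.968, 95% interval 0.895 to 1.05). Summed over the 4 V0 genes, libraries held 430.5 to 453 CPM in P2ry14-null and 444 to 517 CPM in WT. Summed over the 6 V1 genes they held 479 to 505 CPM in P2ry14-null and 475 to 542 CPM in WT. The highest sum of both sectors was in WT library 1, and this library was the highest of all 10 in 16 of the 40 lysosomal genes. Its share over all genes tested is not given here.

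**Figure D4:**
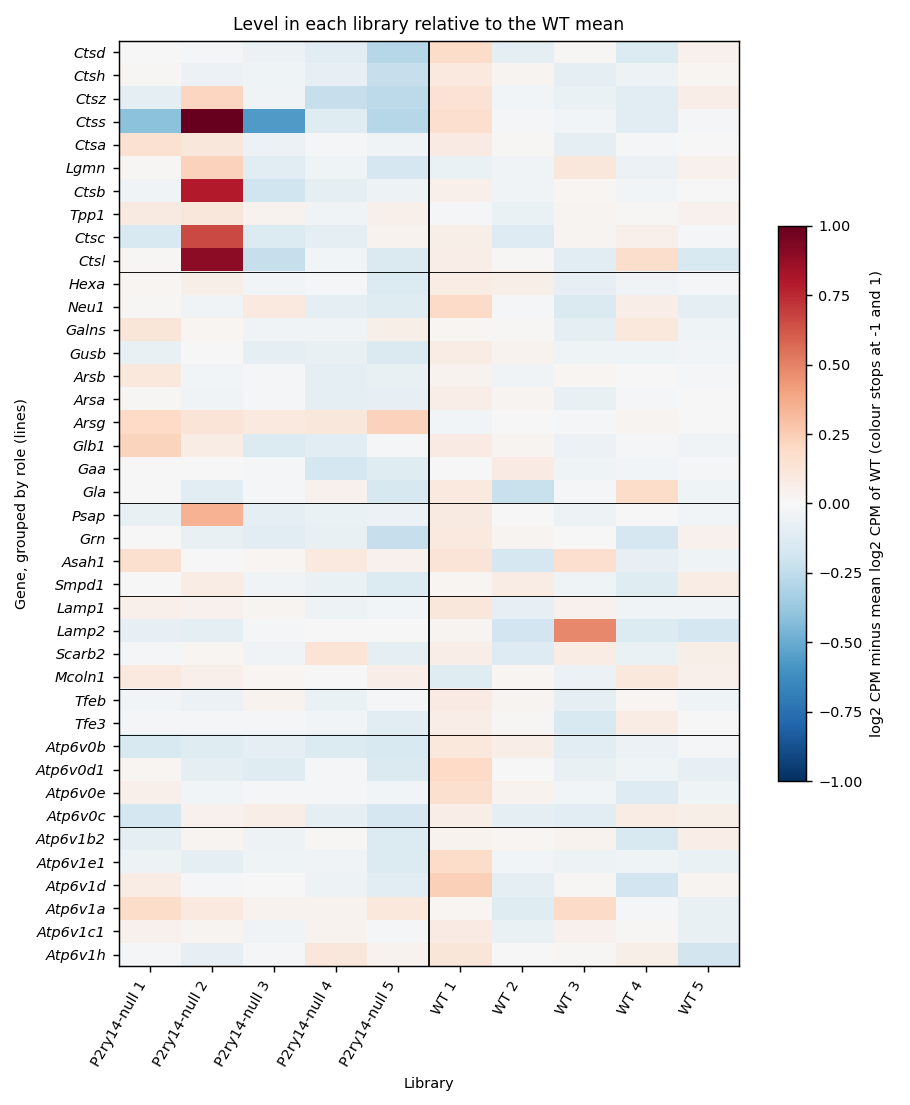
Level of each gene in each library as log2 CPM minus the mean log2 CPM of the WT libraries, P2ry14-null libraries left of the line and WT libraries right of it, genes grouped by role and ordered by level within a role; the colour scale stops at -1 and 1. The darkest cells are Ctss, Ctsl, Ctsb and Ctsc in P2ry14-null library 2, and among WT cells Lamp2 in library 3.

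A wider list of 84 other lysosomal genes gave the same count. Of these 80 were tested and 0 were called by edgeR or DESeq2 (0.0385% and 0.0753% of all genes), with 3 at an unadjusted edgeR p under 0.05 (4.13% of all genes) and a median log2 fold change of 0.0061. The 3 were Lipa, Slc11a1 and Cln3. Lipa, the acid lipase of cholesteryl esters, averaged 54.4 ± 5.08 CPM in P2ry14-null and 48.0 ± 3.56 CPM in WT (log2 0.18 ± 0.07 SE). Its highest value of all 10 libraries was 63.2 CPM in P2ry14-null library 2, and without that library the log2 fold change was 0.12 ± 0.06 SE. Slc11a1, the metal transporter of phagosomes, averaged 325 ± 36.8 and 384 ± 57.1 CPM (log2 -0.24 ± 0.10 SE), and the edgeR adjusted p of both was 0.999. By list, called genes numbered 0 of 4 tested other cathepsins, 0 of 4 cysteine protease inhibitors, 0 of 9 other V-ATPase subunits, 0 of 23 hydrolases, 0 of 15 membrane proteins, 0 of 9 sorting genes and 0 of 16 nutrient sensing genes. Median log2 fold changes of these lists lay between -0.07 and 0.03. Among tested genes of this list, Ctsk and Atp6v0d2, also counted as alveolar macrophage markers, had their highest value in P2ry14-null library 2. Ctsk was at 23.4 CPM there, against 4.20 to 8.06 CPM in the other P2ry14-null libraries and 5.20 to 9.29 CPM in WT. Atp6v0d2 was at 22.6 CPM there, against 4.34 to 6.12 CPM in the other P2ry14-null libraries and 5.12 to 7.55 CPM in WT.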

How the data were processed

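One deposited table holds raw counts of reads for each gene in 10 libraries. The submitters' processing notes name STAR 2.5, featureCounts 1.5.0-p1 of the Subread package, DESeq2 and the mm10 build. The sources used here give no annotation release, strand setting or rule for reads with several matches. Each column name equalled a sample title, which gave group and replicate number.

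From these counts edgeR 4.0.16 (R 4.3.3; TMM, default low-count filter, genotype alone) tested 15586 genes, with Benjamini-Hochberg adjustment over all of them and a threshold of 0.05. The fit was tested on simulated data. SE is |log2 fold change| / sqrt(F), and 95% intervals use its t distribution. Exact permutation tests were two-sided over all splits of 5 against 5. RPKM divides TMM-scaled CPM by exon kilobases of GENCODE vM21, matched for 91.0% of tested genes. DESeq2 1.42.0, other scalings, no filter, a replicate block and single left-out libraries were alternatives. Same-group libraries differed by a chi-square of at least 22.2 per gene, so each counted once. All 40 members were named by role; given in full were the 2 with the smallest p in each direction, the highest per-length level of each role and, chosen after their values were seen, Ctss, Ctsb, Ctsl, Ctsc, Ctsz and Lamp2. Members and lists were chosen with earlier results of these data known. Depth was 67161968 to 185124080 reads a library.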

Additional observations from a re-analysis of the deposited data

Results flagged for a closer look

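Values far from the other libraries of their group were found for 11 of 80 gene and group combinations, by Dixon's criterion at the 95% level, which chance alone meets in about 1 in 20. In P2ry14-null library 2, 5 genes were highest: Ctss at 174 CPM, Ctsb at 234 CPM, Ctsl at 58.4 CPM, Ctsc at 57.9 CPM and Psap at 1057 CPM. The markers of other cells that stood high in the same library are given above, and their part was not tested. In WT library 1, Psap was highest at 883 CPM and Atp6v1e1 highest at 137 CPM. Lamp2 was highest in WT library 3 at 147 CPM, and Atp6v1b2 lowest in WT library 4 at 141 CPM. In P2ry14-null, Tfe3 was lowest in library 5 at 28.2 CPM and Atp6v0e highest in library 1 at 135 CPM, both within a narrow range.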

How the results depend on the processing

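In all 15 alternatives, 0 of the 40 members and 0 of the other lysosomal genes were called. Over all genes the count was 6, 5 with total counts alone, 19 in DESeq2 and 3 to 5 with single libraries left out (3 without P2ry14-null library 1, 2, 3 or 5 or WT library 4). The median log2 fold change of the 40 ran from -0.0435 without P2ry14-null library 2, where 31 of 40 lay below 0 (50.7% of all genes), to 0.0065 without WT library 1, and was 0.0094 with total counts alone, where the median of all genes was 0.034. In at least 1 of the 10 fits with a library left out, 16 of the 40 changed direction. The replicate number did not pair libraries (correlations of deviations from -0.093 to 0.094), and a fit with it as a replicate block called 6 genes and 0 members, with a member median of -0.021. Over the longest transcript instead of all exon bases, the median WT level of the 40 was 29.1 instead of 18.6 RPKM. Every member had at least 1466 reads in every library.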
